A study of Mus musculus with 12 samples.

Results

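The genes described here encode subunits of chromatin complexes that have been linked to Ikaros: the NuRD and Sin3 deacetylase complexes, the CtBP corepressors, the SWI/SNF remodellers and Polycomb repressive complex 2 (PRC2), with 2 further deacetylases and the LSD1-CoREST pair. They were chosen by name, as the probe sets whose gene identifier maps to 1 of 42 listed mouse symbols. All 42 of 42 were measured, among 23185 genes with a name. In this text they are called the complex genes.

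The series profiled splenic CD4 T cells of mice on 12 whole-transcript arrays, with 3 arrays in each of 4 groups. Cells labelled Lck-Cre-;Ikzf+/+ (Cre-) and Lck-Cre+;Ikzf-/- (Cre+) were measured at baseline (0 h) and after 24 h of stimulation with anti-CD3 fixed to the plate and anti-CD28 in solution. The Cre of the Cre+ cells is driven by the promoter of Lck, which is active in T cells from an early thymic stage, so the deletion precedes the splenic cell. No group carried Cre with intact Ikaros, and none was cultured without antibodies, so Cre and deletion, and likewise culture and stimulation, cannot be told apart. The sources used here give neither the ages of the mice nor which exons were deleted.

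Ikaros is a zinc finger protein that binds DNA and brings chromatin complexes to its target genes in lymphocytes. NuRD couples a CHD family helicase to the histone deacetylases Hdac1 and Hdac2, and in T cells much of Ikaros is found with it. Sin3 uses the same deacetylases on another scaffold, SWI/SNF slides and ejects nucleosomes with an ATPase, and PRC2 methylates lysine 27 of histone H3. Many subunits exist as pairs of related genes, of which a complex often takes one.

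All values are log2 expression, 1 probe set per gene, with array medians from 4.04 to 4.17. A gene passed at a limma adjusted p under 0.05 over all 23185 genes, and "rose" and "fell" are used only of genes that passed. The number of arrays limits the precision, and no source used here says that the 3 arrays of a group were separate animals, so p-values measure the spread between these samples. Xist exceeded the Y-linked Eif2s3y in 1 or 2 of 3 arrays of every group, so each group held more than 1 animal. Ikzf1 itself read 10.13 to 10.66 in Cre+ and 10.52 to 10.54 in Cre- cells at baseline, a difference of -0.17 that did not pass (limma adjusted p = 0.968), and the probe set may read undeleted exons, so it did not check the labels. The 9 measured CD4 T cell markers averaged 9.58 to 10.25 on every array, and 2 of them fell on activation in Cre- and 5 in Cre+ cells. The 9 measured B cell markers averaged 7.71 to 8.19 at baseline, 4.72 to 6.10 in activated Cre- cells and 5.36 to 6.85 in activated Cre+ cells, and 8 and 6 of the 9 fell on activation. The 7 myeloid markers went from 4.88 to 5.60 at baseline to 3.42 to 3.81 after activation, where 7 and 6 fell. Of 4 NK cell markers 3 fell in Cre- cells, and 2 fell and 1 rose in Cre+ cells. Neither of 2 CD8 T cell markers passed on activation. The arrays have no true zero, so no marker can be said to be at 0. The part of these other cells in the activation differences below was not tested, and in bulk RNA fewer cells of a type and less RNA per cell cannot be told apart.

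Sequence from the start of a gene is shown for the members with E2F-type letters there, and for Hdac7, the member whose genotypes stood furthest apart. E2F is the factor family that drives cell cycle genes. RefSeq promoters of GRCm38.p6, windows of 250 bases before and 50 after a start, were given for 35 of the 42 complex genes. Percentages below are of windows, of which a gene can have more than 1. A member was counted once if any of its windows matched, so shares of windows and counts of members are not like measures. The E2F-type letters TTTCCCGC were in 1.07% of all 32851 windows on either strand, and among the members in those of Suz12, Smarcd1 and Arid1a. The related letters TTTGGCGC were in 0.514% of windows and among the members in that of Ezh2 alone. The pieces below, read 5′ to 3′ along the gene's strand with the match in capitals, come from chr6:47595009-47595038 (minus strand, Ezh2, match starting at base 4 after the start), chr11:79992861-79992920 (plus strand, Suz12), chr15:99702130-99702189 (plus strand, Smarcd1) and chr4:133754007-133754066 (minus strand, Arid1a).
Ezh2: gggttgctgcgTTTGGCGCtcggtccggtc
Suz12: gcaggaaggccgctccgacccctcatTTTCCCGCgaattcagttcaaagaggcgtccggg
Smarcd1: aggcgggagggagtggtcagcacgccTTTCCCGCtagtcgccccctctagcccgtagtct
Arid1a: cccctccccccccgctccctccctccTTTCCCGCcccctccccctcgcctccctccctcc
On activation Ezh2 and Suz12 rose in both genotypes and Smarcd1 in Cre- cells, whereas Arid1a fell. The letters TTTCCCGC were therefore shared by genes that moved in opposite directions.

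The letters TGGGAA, the core that Ikaros binds, were in 25.6% of all windows on either strand and in those of 5 of the 35 members, Ctbp2, Gatad2a, Hdac7, Jarid2 and Rbbp7. The piece of Hdac7 comes from chr15:97844554-97844613 (minus strand), in 1 of the windows listed for this gene.
Hdac7: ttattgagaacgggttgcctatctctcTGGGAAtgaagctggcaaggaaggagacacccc
The cell cycle element TTTGAA was in 17.9% of windows and in those of 3 members, Eed, Sin3b and Suz12. A match is a description of the letters in these windows and not a bound site.

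Activation for 24 h moved about the same number of complex genes in each genotype. In Cre- cells 13 of 42 passed (31%), beside 18.5% of all genes, with 8 higher (9.39% of all genes) and 5 lower (9.1%). In Cre+ cells 13 passed, beside 20.7% of all genes, again with 8 higher (10.1%) and 5 lower (10.6%). A change of at least 2-fold was reached by 4 members in Cre- cells (6.68% of all genes passed with such a change), Ezh2, Sap30, Chd3 and Smarca2, and by 3 in Cre+ cells (7.26%), the same without Sap30. The activated arrays lay entirely above the baseline arrays for 19 members in Cre- (17.7% of all genes) and 18 in Cre+ cells (17.3%), and entirely below for 14 (17.4%) and 12 (19.3%). The complex genes are brighter than most, and among the 7192 genes with a mean of at least 6 the shares passing were 37.5% and 41.4%, beside 12 of 38 members in each genotype. Read against genes of like brightness, the members' share was thus no higher. Their median log2 difference was 0.10 in Cre- and 0.06 in Cre+ cells, beside -0.005 and -0.02 over all genes.

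The 2 activation comparisons use different arrays but a common estimate of the spread, and 11 members passed in both, out of 13 each. The share of all genes passing in both was not counted, so this overlap cannot be called particular to the members. Ezh2, Suz12, Mbd3, Mta1, Rbbp7, Sap30 and Smarcb1 rose in both genotypes, and Chd3, Mta3, Smarca2 and Arid1a fell in both. Smarcd1 rose and Smarcc2 fell in Cre- cells alone by this threshold, Hdac1 rose and Arid1b fell in Cre+ cells alone, and 27 members passed in neither. None of the 4 passed when the difference of the responses itself was tested (0.00863% of all genes did), so they are not shown to differ between genotypes. The calls of Ezh2, Mta1, Smarcb1, Chd3 and Smarca2 held in both genotypes in each of 12 fits that left out 1 array and in 10 other settings without a fold minimum. Of those 10 settings, calls in Cre- cells ended in 7 for Smarcd1, 4 for Mbd3, 4 for Smarcc2, 3 for Mta3 and 1 for Arid1a, and calls in Cre+ cells in 1 each for Hdac1 and Rbbp7.

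**Figure D1:**
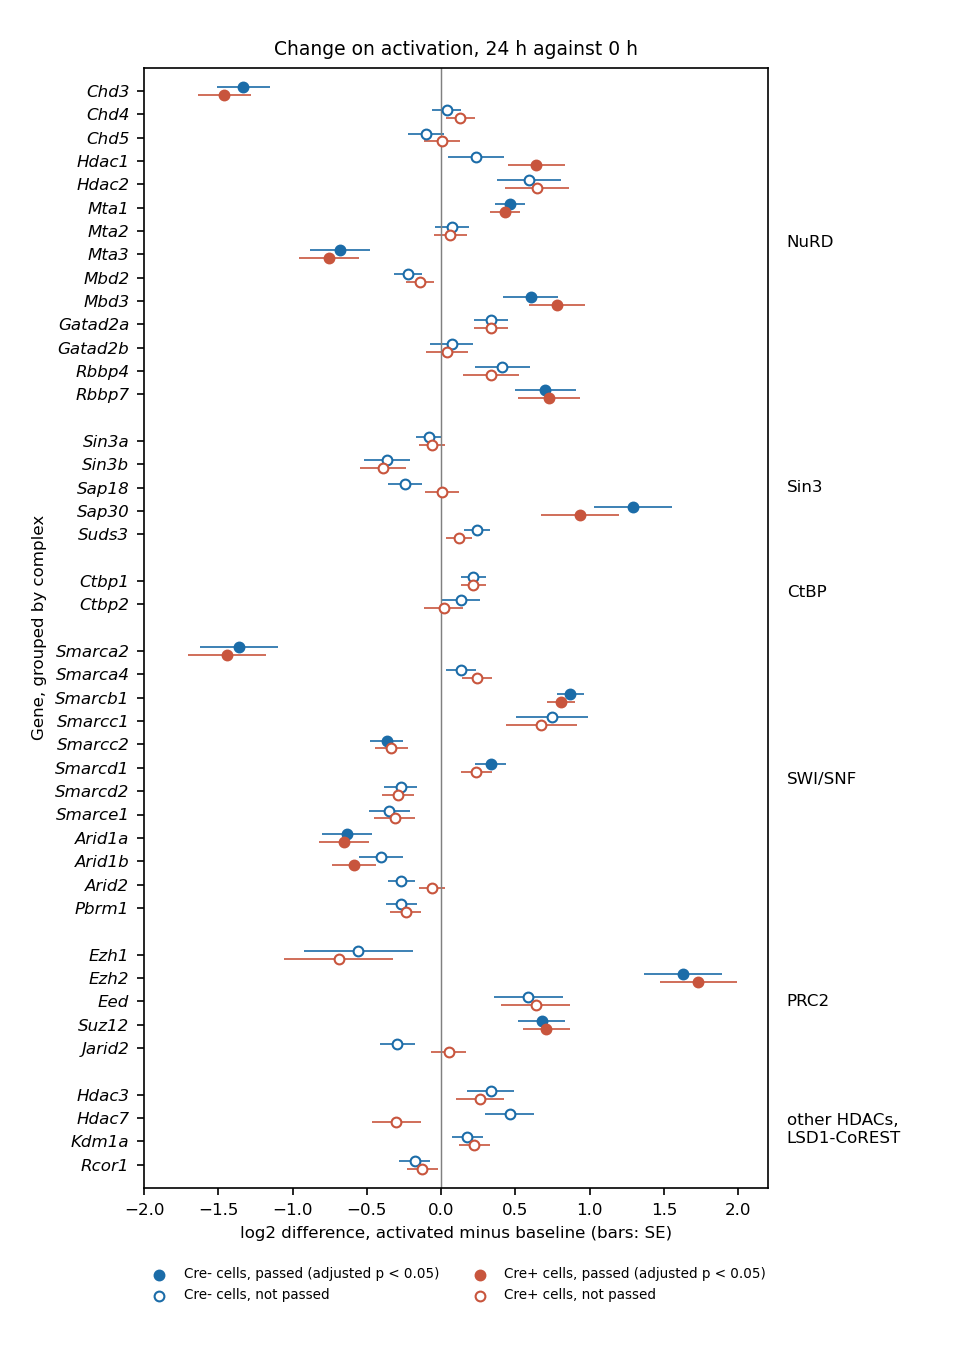
Log2 difference of activated minus baseline cells for each of the 42 complex genes, ordered by complex, in Cre- (blue) and Cre+ (red) cells, with bars for the standard error and filled points for genes that passed at a limma adjusted p under 0.05. Ezh2 lies farthest to the right at 1.63 and 1.73, and Chd3 and Smarca2 farthest to the left, between -1.33 and -1.46.

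PRC2 genes were led by Ezh2, the methyltransferase that predominates in dividing cells. Ezh2 read 7.54, 7.69 and 7.52 in baseline Cre- cells and 8.85, 8.92 and 9.88 after activation. In Cre+ cells it read 7.65, 7.61 and 7.63 at baseline and 9.40, 8.90 and 9.79 after activation. All activated arrays lay above all baseline arrays of either genotype, and array 3 was the highest in both activated groups. The difference was 1.63 in Cre- cells, 3.09-fold (SE 0.262, limma adjusted p = 0.00131), and 1.73 in Cre+ cells, 3.32-fold (limma adjusted p = 0.000834).

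Suz12, a core subunit that PRC2 needs for its activity, read 8.08, 8.28 and 8.41 in Cre- baseline and 8.74, 8.80 and 9.26 in activated cells, without overlap. Its Cre+ arrays read 8.13, 8.04 and 8.29 at baseline and 8.82, 8.67 and 9.09 after activation. Suz12 rose by 0.68 in Cre- (limma adjusted p = 0.0121) and by 0.71 in Cre+ cells (limma adjusted p = 0.00871), and the Cre- call was lost without Cre- baseline array 1 (limma adjusted p = 0.057). Eed, which reads the methylated histone tail, did not pass, with differences of 0.59 and 0.64 (limma adjusted p = 0.108 and 0.0759), although its activated arrays lay above the baseline arrays in both genotypes. Without the activated arrays numbered 3 Eed was 0.31 in Cre- (limma adjusted p = 0.161) and 0.44 in Cre+ cells, which passed (limma adjusted p = 0.0385). Jarid2, which guides PRC2 to DNA, differed by -0.29 in Cre- and 0.05 in Cre+ cells without passing.

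Ezh1, the alternative methyltransferase of resting cells, did not pass in either genotype. It read 8.98, 9.08 and 8.71 in Cre- baseline cells and 8.87, 8.80 and 7.44 after activation, and in Cre+ cells 8.99, 9.09 and 8.85 followed by 8.33, 8.91 and 7.63. The lowest readings were those of array 3 in each activated group. Cre+ activated array 1 also lay below baseline, and the other activated arrays read within the range of the baseline ones. Its difference was -0.56 in Cre- and -0.69 in Cre+ cells (limma adjusted p = 0.367 and 0.233), and -0.09 and -0.36 without the activated arrays numbered 3.

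Among the 14 NuRD genes, 3 rose (9.39% of all genes did) and 2 fell (9.1%) in Cre- cells. In Cre+ cells 4 of them rose (10.1%) and 2 fell (10.6%). Chd3, a helicase of the complex, had the largest fall. It read 9.44, 9.46 and 9.60 in Cre- baseline and 8.37, 8.32 and 7.81 in activated cells, and 9.55, 9.51 and 9.63 then 8.06, 8.46 and 7.78 in Cre+ cells. All 6 activated arrays lay below all 6 baseline arrays. Chd3 fell by 1.33 in Cre- cells, 2.52-fold (SE 0.178, limma adjusted p = 0.000415), and by 1.46 in Cre+ cells, 2.75-fold (limma adjusted p = 0.000193). Chd4, the helicase known as Mi-2 beta and the main partner of Ikaros in thymocytes, ranged over only 9.52 to 9.81 on the 12 arrays, and its differences of 0.04 and 0.13 did not pass. Chd5, the neuronal helicase, read 4.23 to 4.67, near the array medians, and did not pass.

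The MTA proteins, which hold the deacetylases in NuRD, moved apart. Mta1 read 8.97, 8.96 and 8.82 in Cre- baseline and 9.30, 9.33 and 9.52 in activated cells, and 9.03, 8.92 and 8.84 then 9.44, 9.35 and 9.30 in Cre+ cells. Mta1 rose by 0.46 and 0.43 (SE 0.101, limma adjusted p = 0.00786 and 0.0104), with no overlap between baseline and activated arrays. Mta3, the family member known from germinal centre B cells, read 9.36, 9.22 and 9.27 then 8.81, 8.86 and 8.13 in Cre- cells, and 9.01, 8.99 and 8.91 then 8.11, 8.61 and 7.92 in Cre+ cells. It fell by 0.68 and 0.76 (limma adjusted p = 0.0357 and 0.0202), with array 3 lowest in both activated groups. Without Cre- activated array 3 the Cre- difference was -0.45 and did not pass, and 6 other arrays also ended that call when left out (limma adjusted p up to 0.116): each Cre- and each Cre+ baseline array. In Cre+ cells the call ended without Cre+ baseline array 1 or 2 or Cre+ activated array 1 or 3 (limma adjusted p up to 0.0879). Mta2 stayed between 9.38 and 9.78 on the 12 arrays and did not pass.

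Of the methyl-CpG binding proteins, which define alternative forms of NuRD, Mbd3 rose and Mbd2 did not pass. Mbd3 read 7.48, 7.60 and 7.17 then 7.81, 7.87 and 8.38 in Cre- cells, and 7.17, 7.39 and 7.20 then 8.10, 7.70 and 8.30 in Cre+ cells, without overlap in either. Its difference was 0.60 in Cre- (limma adjusted p = 0.0444) and 0.78 in Cre+ cells (limma adjusted p = 0.0122). The Cre+ call ended only without Cre+ activated array 3 (limma adjusted p = 0.0549), among the fits that left out 1 array. The Cre- call ended in 9 of those 12 fits (limma adjusted p up to 0.165), namely without any baseline array of either genotype, Cre- activated array 2 or 3, or Cre+ activated array 1. Mbd2 differed by -0.22 and -0.14.

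The histone chaperone Rbbp7 read 9.27, 9.41 and 9.28 then 9.86, 9.80 and 10.41 in Cre- cells, and 9.21, 9.38 and 9.37 then 10.04, 9.62 and 10.48 in Cre+ cells. It rose by 0.70 and 0.73 (SE 0.207, limma adjusted p = 0.0353 and 0.0272), with array 3 highest in both activated groups. The calls ended in 7 and 5 of the 12 fits that left out 1 array (limma adjusted p up to 0.127 and 0.109): in Cre- cells any Cre- baseline array, Cre- activated array 3, Cre+ baseline array 2 or 3 or Cre+ activated array 1, and in Cre+ cells any Cre+ baseline array or Cre+ activated array 1 or 3. Its close relative Rbbp4, at 0.41 and 0.34, missed the threshold.

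Of the catalytic deacetylases shared by NuRD and Sin3, Hdac1 passed in Cre+ cells and Hdac2 in neither genotype. Hdac1 read 7.93, 8.19 and 8.04 then 8.03, 8.13 and 8.70 in Cre- cells, which overlapped, and 8.09, 7.68 and 8.06 then 8.71, 8.29 and 8.74 in Cre+ cells, which did not. It rose by 0.64 in Cre+ cells (limma adjusted p = 0.0341) and differed by 0.23 in Cre- cells without passing (limma adjusted p = 0.489). The Cre+ call ended without any Cre+ baseline array or Cre+ activated array 1 or 3 (limma adjusted p up to 0.132). Hdac2 missed the threshold with differences of 0.59 and 0.65 (limma adjusted p = 0.0806 and 0.0533), with no overlap in either genotype. The zinc finger subunits Gatad2a (0.33 and 0.34) and Gatad2b (0.07 and 0.04) did not pass.

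In the Sin3 complex, Sap30, a small subunit that bridges Sin3 to its deacetylases, was the 1 gene of 5 that passed. Over all genes 18.5% passed in Cre- and 20.7% in Cre+ cells. Sap30 read 4.79, 4.47 and 4.54 then 5.50, 5.65 and 6.53 in Cre- cells, and 5.29, 5.31 and 4.81 then 6.25, 5.65 and 6.31 in Cre+ cells. All activated arrays lay above all baseline arrays, and the baseline Cre+ arrays lay above the baseline Cre- arrays. The baseline Cre- readings were only a little above the array medians of 4.04 to 4.17. Sap30 rose by 1.29 in Cre- cells, 2.45-fold (SE 0.263, limma adjusted p = 0.00548), and by 0.94 in Cre+ cells, 1.91-fold (limma adjusted p = 0.0257). The Cre+ call ended without Cre+ baseline array 3 or Cre+ activated array 1 or 3 (limma adjusted p up to 0.104). The scaffolds Sin3a (-0.08 and -0.06) and Sin3b (-0.36 and -0.39), the subunits Suds3 (0.24 and 0.12) and Sap18 (-0.25 and 0.005) and the corepressors Ctbp1 (0.22 and 0.22) and Ctbp2 (0.13 and 0.02) did not pass. Ctbp2, at 3.61 to 4.12, lay near the array medians.

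Of 12 SWI/SNF genes, 2 rose (9.39% of all genes did) and 3 fell (9.1%) in Cre- cells. In Cre+ cells 1 of them rose (10.1%) and 3 fell (10.6%). Smarca2, the ATPase BRM, read 8.77, 8.66 and 8.81 in Cre- baseline and 7.79, 7.70 and 6.69 in activated cells, and 8.72, 8.60 and 8.63 then 7.05, 7.66 and 6.91 in Cre+ cells. Every activated array lay below every baseline array, and array 3 was lowest in both activated groups. Smarca2 fell by 1.36, 2.56-fold (SE 0.262, limma adjusted p = 0.00407), and by 1.44, 2.72-fold (limma adjusted p = 0.00261). Smarca4, the alternative ATPase BRG1, read 8.79 to 9.16 on the 12 arrays and differed by 0.14 and 0.24 without passing.

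Smarcb1, a core subunit also called SNF5, had the smallest adjusted p of all members in both genotypes. It read 7.80, 7.76 and 7.67 then 8.59, 8.56 and 8.69 in Cre- cells, and 7.80, 7.74 and 7.80 then 8.68, 8.49 and 8.60 in Cre+ cells. The activated arrays lay within 0.2 of each other in each genotype and well apart from baseline, and array 3 did not stand out. Smarcb1 rose by 0.87, 1.83-fold (SE 0.0917, limma adjusted p = 7.96e-05), and by 0.81, 1.75-fold (limma adjusted p = 0.000117).

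The ARID subunits, which tell the BAF forms of SWI/SNF from the PBAF form, lay lower after activation where they passed. Arid1a, the defining subunit of BAF, read 10.44, 10.41 and 10.26 then 9.97, 9.92 and 9.32 in Cre- cells, and 10.35, 10.33 and 10.18 then 9.61, 9.85 and 9.44 in Cre+ cells. It fell by 0.63 and 0.65 (limma adjusted p = 0.0219 and 0.0167), with no overlap between baseline and activated arrays. The Cre- call ended without Cre- baseline array 1 or 2 or Cre- activated array 3 (limma adjusted p up to 0.077), and the Cre+ call without Cre+ baseline array 1 or 2 or Cre+ activated array 1 or 3 (limma adjusted p up to 0.0719). Arid1b fell by 0.59 in Cre+ cells (limma adjusted p = 0.0155), a call that ended without Cre+ baseline array 1 or Cre+ activated array 1 or 3 (limma adjusted p up to 0.067), and differed by -0.40 in Cre- cells. The PBAF subunits Arid2 (-0.27 and -0.06) and Pbrm1 (-0.27 and -0.24) did not pass.

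Of the remaining SWI/SNF genes, the related scaffolds Smarcc1 and Smarcc2 gave differences of opposite sign. Smarcc1 read 8.47, 8.30 and 8.39 then 8.76, 8.89 and 9.75 in Cre- cells and 8.51, 8.42 and 8.56 then 9.17, 8.79 and 9.56 in Cre+ cells, and its differences of 0.75 and 0.68 did not pass (limma adjusted p = 0.0511 and 0.0695). The activated arrays lay above baseline in both genotypes, with array 3 the highest of each. Smarcc2 fell by 0.37 in Cre- cells (limma adjusted p = 0.0417) and differed by -0.34 in Cre+ cells (limma adjusted p = 0.0543). Smarcd1 rose by 0.33 in Cre- cells (limma adjusted p = 0.0492) and differed by 0.24 in Cre+ cells. Smarcc2 lost its call in 8 and Smarcd1 in 9 of the 12 fits that left out 1 array (limma adjusted p up to 0.158 and 0.161), both of them without any Cre- baseline array, Cre- activated array 2 or 3, Cre+ baseline array 1 or 2 or Cre+ activated array 1, and Smarcd1 also without Cre+ baseline array 3. Smarcd2 (-0.27 and -0.29) and Smarce1 (-0.35 and -0.31) did not pass. Hdac3, the deacetylase of the NCoR complex (0.33 and 0.26), Kdm1a, the demethylase LSD1 (0.18 and 0.22), and its partner Rcor1 (-0.18 and -0.13) did not pass either.

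For 6 pairs of related subunits, picked with the results in view, the change of the first gene on activation minus that of the second is given as a description, with no test. Ezh1 against Ezh2 gave -2.19 in Cre- and -2.42 in Cre+ cells, Smarca2 against Smarca4 -1.49 and -1.68, and Chd3 against Chd4 -1.37 and -1.59. Mbd2 against Mbd3 gave -0.82 and -0.92, and Rbbp4 against Rbbp7 -0.29 and -0.39. Hdac1 against Hdac2 gave -0.36 and -0.01. These are differences of changes, since levels of different probe sets cannot be compared. Without the activated arrays numbered 3, Ezh2 stood at 1.30 and 1.52 and Ezh1 at -0.09 and -0.36.

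**Figure D2:**
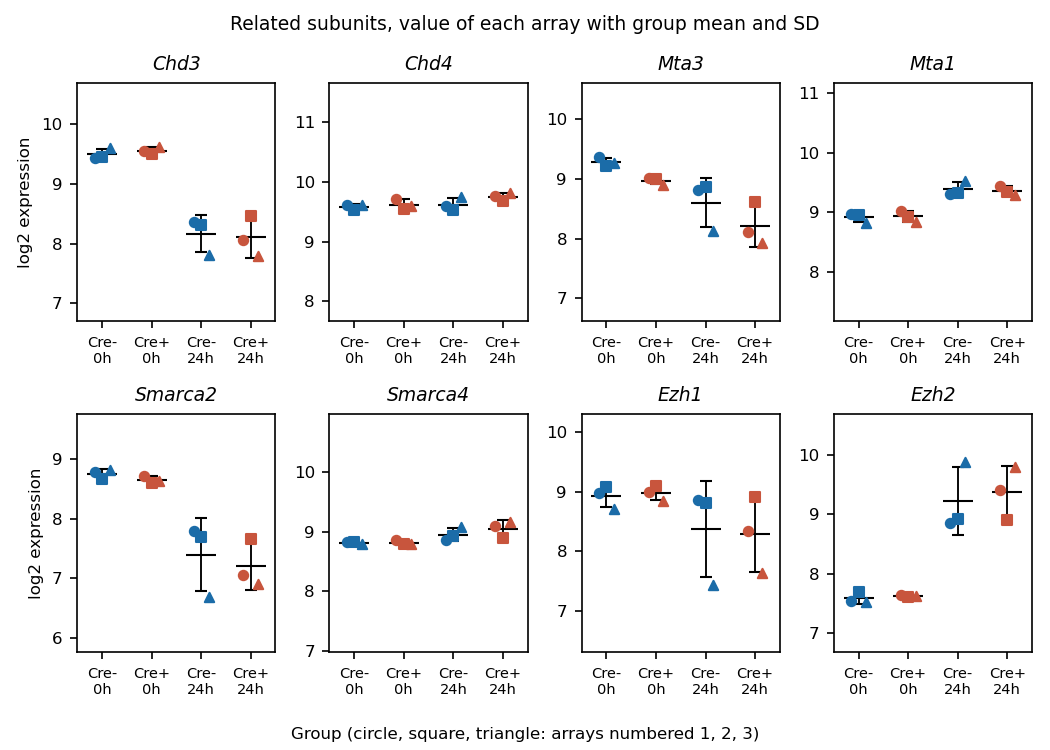
Log2 value of each array for 4 pairs of related subunits, by group, with the group mean and SD (n = 3), on axes of equal span that start above 0. Chd3, Mta3 and Smarca2 lie lower on every activated array than on any baseline array of their genotype, Chd4 and Smarca4 shift by 0.24 at most between group means of a genotype, and Ezh2 rises to between 8.85 and 9.88.

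The activated arrays numbered 3 stood apart from the others of their groups. The mean of 19 proliferation genes reached 9.30 in Cre- and 8.90 in Cre+ cells there. It was 6.93 on both other activated Cre- arrays, 7.56 and 6.84 on those of Cre+ cells, and 6.61 to 6.83 at baseline. Array 3 was the highest of its activated group in both genotypes for 19 of the 42 complex genes (45.2%, beside 20.7% of all genes) and the lowest in both for 14 (33.3%, beside 22.4%). The complex genes spread more than the median gene in activated Cre- cells, with a median SD of 0.228 beside 0.176, and less in Cre- cells at baseline, with 0.0847 beside 0.134. In Cre+ cells the median SD was 0.166 beside 0.172 after activation and 0.0683 beside 0.128 at baseline. The part of the proliferation genes in these values was not tested.

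Without both arrays numbered 3 the leading changes still passed, most of them at a smaller size. Chd3 stood at -1.15 in Cre- and -1.30 in Cre+ cells, Smarca2 at -1.01 and -1.29, Sap30 at 0.97 and 0.82 and Suz12 at 0.51 and 0.59. Smarcb1 was 0.83 and 0.80, close to its values with all arrays. In this fit 12 members passed in Cre- cells (16.6% of all genes did), 9 of them among the 13 above, and 16 in Cre+ cells (21.3%), which included all 13. Of those that had not passed with all arrays, Smarcc1 passed in both genotypes at 0.44 and 0.48 (limma adjusted p = 0.0426 and 0.0227), and Smarce1 at -0.48 and -0.39 (limma adjusted p = 0.0193 and 0.042). Hdac7 passed in Cre- cells and Eed in Cre+ cells. The Cre- calls of Mta3 (-0.45), Mbd3 (0.43), Smarcc2 (-0.27) and Smarcd1 (0.28) were lost (limma adjusted p = 0.0532, 0.101, 0.135 and 0.118).

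**Figure D3:**
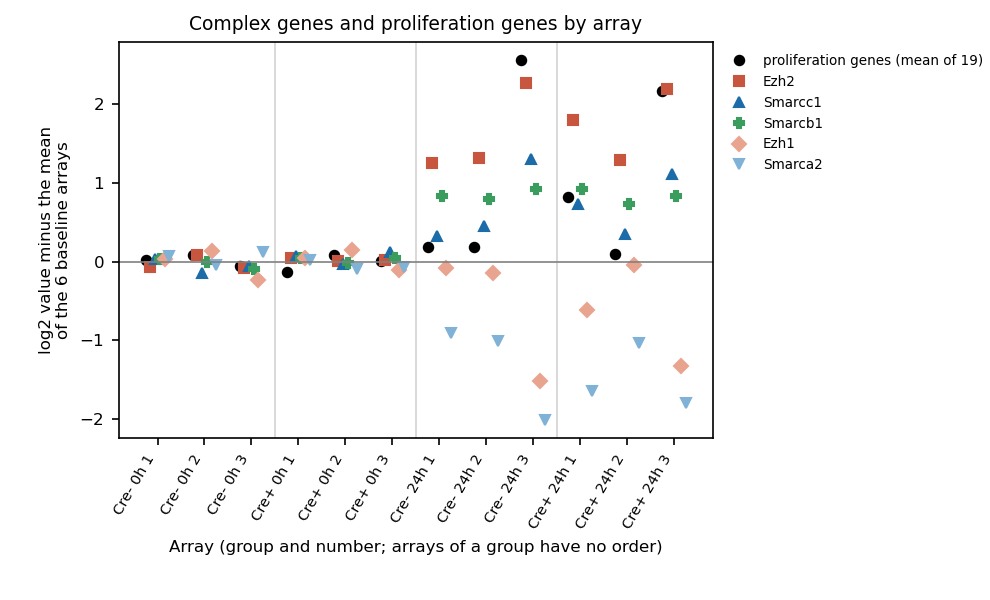
Log2 value of 5 complex genes and of the mean of 19 proliferation genes on each of the 12 arrays, as the difference from the mean of the 6 baseline arrays. The proliferation genes stand highest on the activated arrays numbered 3 (9.30 and 8.90 before subtraction), where Ezh2 and Smarcc1 are highest and Ezh1 and Smarca2 lowest of their groups, while Smarcb1 lies at a similar height on all 6 activated arrays.

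Other genes of these pathways, from a list drawn up by complex, gave a background for the members. Of 82 measured, 22 passed on activation of Cre- cells (26.8%, beside 18.5% of all genes), 11 in each direction. In Cre+ cells 28 passed (34.1%, beside 20.7%), 12 higher and 16 lower. For the counts per list below, 9.39% of all genes rose and 9.1% fell in Cre- cells. In Cre+ cells 10.1% of all genes rose and 10.6% fell. Among 11 further genes of NuRD and the CHD family, 4 fell in Cre- and 3 in Cre+ cells, the helicase genes Chd9 (-0.98 and -0.69) and Chd6 (-0.81 and -0.76) in both, while Chd7 fell by 0.65 in Cre- cells and differed by -0.37 in Cre+ cells without passing. Zfp219 rose by 0.85 and 0.65. Of 12 further Sin3 genes Kdm5a, a histone H3 lysine 4 demethylase, fell by 0.60 and 0.49, and Ing1, a reader of that mark, fell by 0.55 in Cre+ cells.

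Of 16 further SWI/SNF genes, Phf10, a subunit of PBAF, rose by 1.32 in Cre- cells, 2.50-fold (SE 0.114, limma adjusted p = 1.85e-05), and by 1.09 in Cre+ cells. It read 6.74, 6.84 and 6.71 then 7.90, 8.20 and 8.15 in Cre- cells, and 6.91, 6.76 and 6.73 then 8.03, 7.88 and 7.75 in Cre+ cells, with a wide gap between the states. Actl6a, an actin-related subunit of BAF, rose by 0.66 in Cre- cells, Bicral fell by 1.06 in Cre+ cells, and Bcl7b fell by 0.35 and 0.33.

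Of the 5 further PRC2 genes, the accessory genes Aebp2 (0.53 and 0.54) and Epop (1.10 and 1.03) rose in both genotypes, and Mtf2 rose by 0.45 in Cre+ cells. Phf1, which tethers PRC2 through a Tudor domain, fell by 1.94 and 1.93 (SE 0.567, limma adjusted p = 0.0343 and 0.0317). Phf1 read 8.58, 8.57 and 8.49 then 7.54, 7.19 and 5.10 in Cre- cells and 8.56, 8.50 and 8.54 then 6.66, 7.57 and 5.57 in Cre+ cells, lowest on array 3 of each activated group. Its calls ended in 7 and 5 of the 12 fits that left out 1 array, in Cre- cells without Cre- activated array 3 (limma adjusted p up to 0.0925 over these fits) and in Cre+ cells without Cre+ activated array 3 (up to 0.129) among them. Of 18 genes of Polycomb repressive complex 1, which ubiquitylates histone H2A, 5 rose in each genotype and 1 and 2 fell. The subunit genes Kdm2b (1.05 and 1.01), Pcgf5 (1.04 and 1.21), Pcgf6 (0.78 and 0.77) and Pcgf2 (0.70 and 0.76) rose in both.

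Of 8 further CoREST and NCoR genes, Rcor2, at 2.62 to 3.69 below the array medians, rose by 0.77 and 0.62, and Tbl1xr1 fell by 0.44 and 0.41. Gps2 and Phf21a fell in Cre+ cells, by 0.42 and 0.91. Of 12 further deacetylases none rose on activation. Sirt7 fell by 0.86 and 0.88, Hdac9, a class IIa deacetylase like Hdac7, fell by 1.42 in Cre- cells, and Hdac10 fell by 0.49 in Cre+ cells. Among these further genes Chd9, Phf10, Aebp2, Epop, Kdm2b, Pcgf2, Pcgf5, Pcgf6 and Sirt7 passed in both genotypes in each of the 12 fits that left out 1 array. Chd7, Hdac9, Hdac10 and Bicral did so in the genotype where they passed. Each of the others named lost a call in 1 to 8 of these fits. A further gene given for 1 genotype did not pass in the other. None of the further genes passed when the difference of the responses was tested (0.00863% of all genes did), so such a gene is not shown to differ between genotypes.

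No complex gene passed between the genotypes in either state. At baseline 0 of 42 passed between Cre+ and Cre- cells in limma, beside 0.552% of all genes, and 1 had an unadjusted p under 0.05, beside 6.93% of all genes. After activation 0 of 42 passed, beside 0.729% of all genes, and 1 had an unadjusted p under 0.05, beside 7.51%. The median difference was 0.005 at baseline and 0.02 after activation, beside 0.002 and -0.01 over all genes. The 95% interval of the difference lay within a 2-fold change for 40 of 42 members at baseline, all but Sap30 and Hdac7, and for 42 of 42 after activation, beside 94.6% and 93.8% of all genes. A smaller change could therefore have gone unseen, and with these 3 arrays a group the median SE of a member's difference was 0.135.

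At baseline 5 members lay entirely higher in Cre+ cells (8.82% of all genes did) and 5 entirely lower (7.42%). After activation only Arid2 lay entirely higher, at 8.85, 8.83 and 8.97 against 8.68, 8.70 and 8.69 (5.25% of all genes), and none entirely lower (5.51%). Arid2 differed by 0.19 and did not pass (limma adjusted p = 0.654). Chd4, the Ikaros partner in NuRD, differed by 0.04 at baseline and 0.13 after activation between genotypes.

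**Figure D4:**
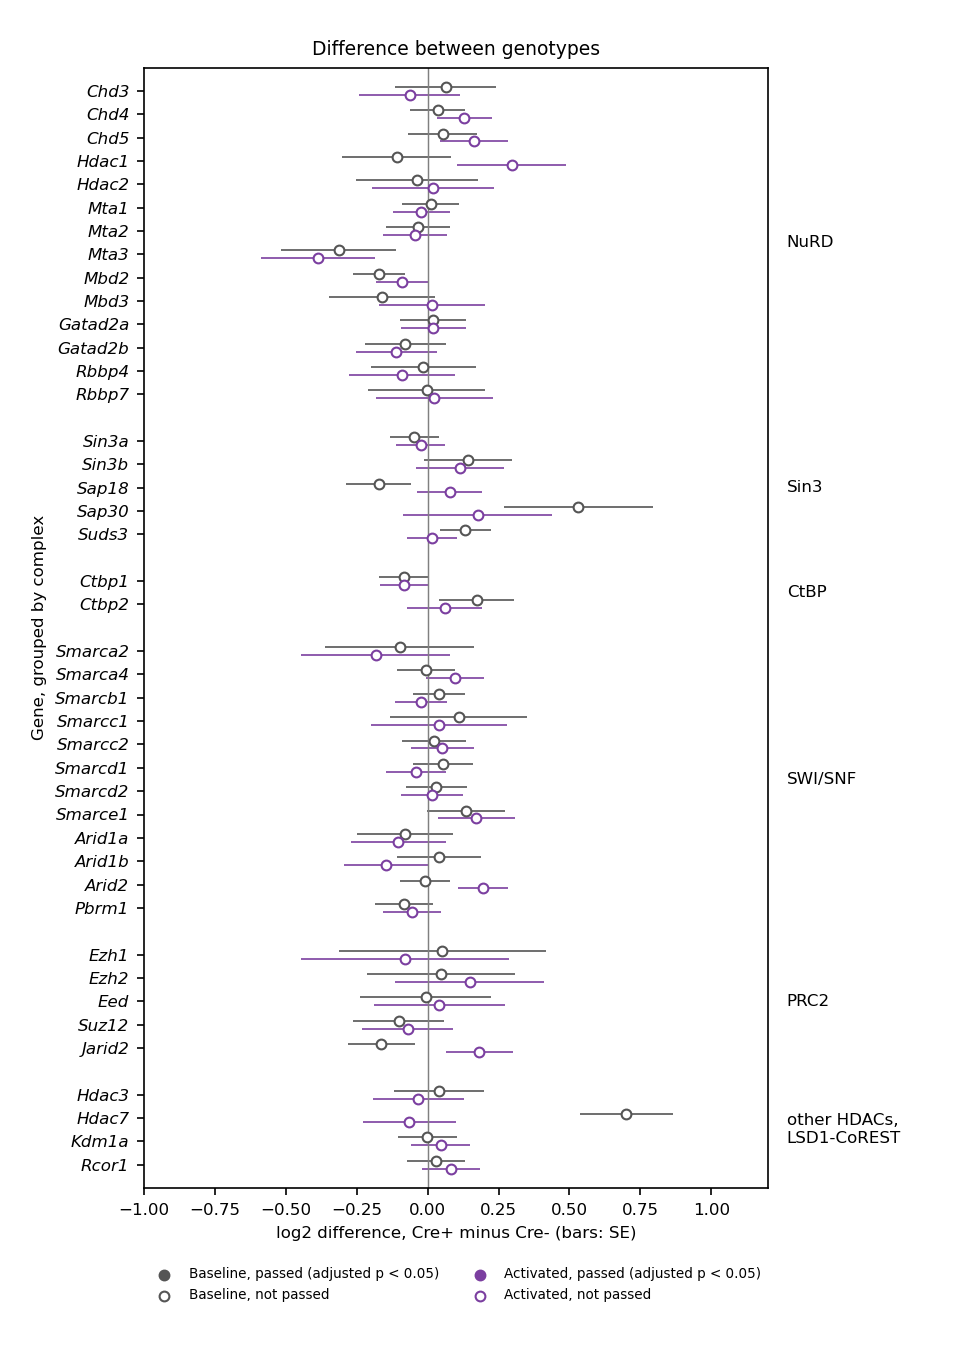
Log2 difference of Cre+ minus Cre- cells for each of the 42 complex genes at baseline (grey) and after activation (purple), with bars for the standard error. All points are open, since none passed at a limma adjusted p under 0.05, and Hdac7 at baseline lies farthest from 0, at 0.70.

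The largest genotype difference among the members was that of Hdac7, a class IIa deacetylase that is abundant in thymocytes and leaves the nucleus when the T cell receptor is engaged. Hdac7 read 8.15, 8.08 and 7.95 in baseline Cre- cells and 8.79, 8.68 and 8.81 in baseline Cre+ cells. Each Cre+ array lay above each Cre- array. The difference of 0.70, 1.63-fold, had an SE of 0.165 and did not pass (limma adjusted p = 0.125). It passed with array weights, when only the 6 baseline arrays were fitted, without the activated arrays numbered 3 (limma adjusted p = 0.012) and without Cre+ activated array 3 alone (limma adjusted p = 0.0388), with values from 0.65 to 0.75 over the fits that left out 1 array. The activated arrays do not enter this difference, only the common estimate of the spread.

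After activation the genotypes overlapped, with Hdac7 at 8.54, 8.69 and 8.33 in Cre- and 8.51, 8.80 and 8.07 in Cre+ cells, a difference of -0.06. Activation differed by 0.46 in Cre- cells and by -0.30 in Cre+ cells, and neither passed (limma adjusted p = 0.0754 and 0.244). Without the activated arrays numbered 3 these were 0.56, which passed (limma adjusted p = 0.0103), and -0.11 (limma adjusted p = 0.639). The difference of these responses was -0.76 (SE 0.233, limma adjusted p = 0.768), and it passed with array weights only. It shares the baseline arrays with the difference above.

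Among the other pathway genes 1 of 82 passed between genotypes at baseline (1.22%, beside 0.552% of all genes) and none after activation. The gene was Hdac6, a mainly cytoplasmic deacetylase that acts on tubulin. Hdac6 read 6.02, 6.0 and 5.74 in baseline Cre- cells and 6.94, 6.69 and 6.66 in baseline Cre+ cells, without overlap. It rose by 0.84 in Cre+ cells, 1.80-fold (SE 0.117, limma adjusted p = 0.00737), and the call held in each of the 12 fits that left out 1 array. After activation it read 6.21, 6.14 and 6.39 in Cre- and 6.51, 6.51 and 6.45 in Cre+ cells, a difference of 0.25 that did not pass (limma adjusted p = 0.682). The difference of its responses, -0.59, did not pass (limma adjusted p = 0.705). At baseline Xist exceeded Eif2s3y on 1 of 3 Cre- and 2 of 3 Cre+ arrays. Whether the baseline call of Hdac6 held with sex as a covariate is not given here. Myeloid markers other than Itgam, and B cell markers, did not pass between genotypes at baseline, whereas Itgam stood 2.73 higher in Cre+ cells. All 9 B cell markers read lower in Cre+ than in Cre- cells at baseline (median difference -0.26) and higher after activation (median 0.85). None passed in either state, and their part in the genotype differences was not tested.

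**Figure D5:**
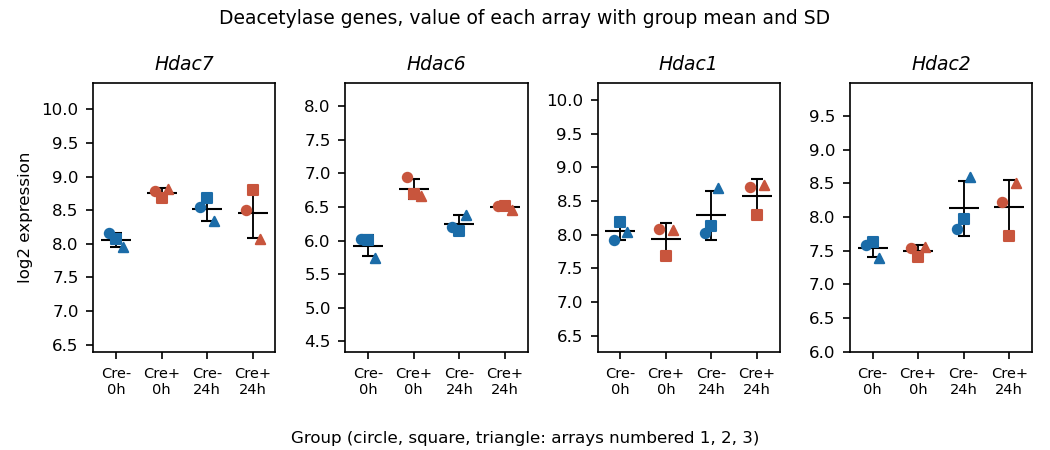
Log2 value of each array for 4 deacetylase genes by group, with the group mean and SD (n = 3), on axes of equal span that start above 0. Hdac7 and Hdac6 lie higher on every baseline Cre+ array than on any baseline Cre- array, by 0.70 and 0.84 between means, while the baseline arrays of the genotypes overlap for Hdac1 and Hdac2.

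The difference of the activation responses was tested for each member, since a gene can pass in one genotype and not in the other by a small margin. None of 42 passed in limma, beside 0.00863% of all genes, and only Hdac7 had an unadjusted p under 0.05, beside 4.7% of all genes. The 95% interval lay within a 2-fold difference of responses for 39 of 42, all but Sap30, Ezh1 and Hdac7, beside 86.4% of all genes.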

How the data were processed

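Splenic CD4 T cells of mice were measured on 12 arrays, 4 groups of 3. The authors deposited log2 expression values made with RMA, affy 1.36.1 and R 2.15.1, per the submitters' processing notes, and neither a chip definition file nor a genome build is named there. The values ran from 0.542 to 13.2. Of 25206 probe sets, 23185 matched exactly 1 gene name and were tested, and 2021 without a name were left out. Groups came from the labels. All 12 arrays entered one model with 1 mean for each group (limma 3.58.1 in R 4.3.3), with 8 residual and 3.55 prior degrees of freedom, no covariate and no fold minimum, and p-values were two-sided and adjusted by Benjamini-Hochberg over all 23185 genes. A gene's SE is the moderated one of this model and is common to all comparisons of 2 groups.

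Members and lists were chosen with earlier results of these data known. Any member could be named. Of 88 other pathway genes 82 were measured, and up to 4 per list were named, those that passed with the smallest adjusted p. The pairs and the letters searched in RefSeq promoters (GRCm38.p6) were chosen after the values had been seen. The model was tested on simulated data. The alternatives were a replicate block, trended and robust variance moderation, weighted arrays, a mean of at least 5, every probe set, quantile normalization, median centring, only the arrays compared, sex as a covariate, no activated arrays numbered 3, a 2-fold minimum and each array left out.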

Additional observations from a re-analysis of the deposited data

How the results depend on the processing

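No named change among the complex genes turned its direction where it had passed, and the number that passed moved with the setting. Between genotypes at baseline 1 member, Hdac7, passed in place of 0 with array weights, with only the arrays compared and without the activated arrays numbered 3 (1.38%, 1.08% and 1.15% of all genes), and the fits that left out 1 array gave 0 to 1. After activation array weights gave 4, Hdac1 higher and Arid1b, Mta3 and Smarca2 lower (10.4% of all genes). In Cre- cells activation gave 13 members in the fit of all arrays, 21 with array weights (25.5% of all genes), 21 of 39 with a mean of at least 5 (44% of genes at that mean), 8 with only the arrays compared (13.8%), 4 with a 2-fold minimum (6.68%) and 6 to 16 when 1 array was left out (12.4% to 20.3%). It was 6, 7 and 8 without Cre- baseline arrays 1, 2 and 3 and 8 without Cre- activated array 3 or Cre+ baseline array 2. In Cre+ cells the 13 became 26, 20 of 39 and 3 with array weights, the mean minimum and the 2-fold minimum (35.8%, 46.4% and 7.26% of the genes tested in each), and 6 to 19 when 1 array was left out (13.6% to 25.5%), where leaving out Cre+ baseline array 1 gave 8 and leaving out activated array 1 or 3 gave 7 and 6. For the difference of responses array weights gave 1 (0.617% of all genes). The cause was not tested.

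Scaling moved the split of higher and lower: 12 and 4 with median centring and 7 and 8 with quantile normalization in Cre- cells, and 8 and 8 with quantile normalization in Cre+ cells, in place of 8 and 5. In these fits 18.9%, 19.1% and 21% of all genes passed in either direction. The split over all genes is not given here, so the members' splits cannot be called particular to them. The replicate numbers did not pair the arrays throughout: correlations of same-numbered deviations were not all over 0.1 in any comparison. Not every array correlated best with its own number. Between the activated groups of the genotypes, however, the correlations were -0.0455, 0.571 and 0.728 for numbers 1, 2 and 3. There only number 3 correlated best with its own number. With the number as a block 12 members passed in Cre- (20.2% of all genes) and 17 in Cre+ cells (21.9%) on activation. No member passed in the comparisons of genotypes (0.548% of all genes at baseline and 0.815% after activation) or of responses (0.0216%).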
